A study of Mus musculus with 2 samples.

Results

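Interleukin genes and the genes of their receptors were described in mouse medullary thymic epithelial cells (mTECs), thymic stromal cells in which maturing T cells meet antigens of other organs. Members were all genes whose symbol starts with Il followed by a digit. There were 83 of 23997 genes, namely 37 ligands, 40 receptor chains, 4 secreted antagonists or binding proteins and 2 others. Polyadenylated RNA had been sequenced from mTECs with high surface MHC class II, sorted by flow cytometry from the thymus of pooled C57BL/6 mice, in 1 library from Aire-/- mice (labelled Aire-KO) and 1 from WT mice. The sources used here give neither the kind of Aire allele nor the age, the sex or the number of mice per pool. There is 1 library for each genotype, so no replicate check and no test was possible, and every difference described is one between 2 libraries.

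Interleukins are secreted proteins that carry signals between immune and barrier cells. Each binds a receptor built of a private chain and, often, a chain shared with other interleukins, and most of these receptors signal through JAK kinases and STAT factors, whereas the IL-1 and IL-17 families signal through adaptor proteins to NF-kappaB. In the thymus, epithelial IL-7 sustains early thymocytes and epithelial IL-15 serves several innate-like lymphocytes. mTECs also transcribe cytokine genes typical of T cells, epidermis or tuft cells, and the regulator Aire drives much of such ectopic transcription.

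Levels are in FPKM, which scales fragments by transcript length and by sequencing depth, so genes can be compared with each other. The log2 ratio is that of FPKM + 0.1, Aire-KO over WT, so that a negative value means a lower level in the Aire-KO-labelled library. A gene with a mean of at least 0.5 FPKM counts here as lower or higher when it differed at least 2-fold on that scale, which is a criterion of size only; the others are within 2-fold. Numbers in parentheses after a pair of levels are the log2 ratio without pseudocount and the 95% interval of that ratio from estimated fragments, which covers counting error only. Depth, estimated from the steps between low values, was about 55000000 fragments in the Aire-KO-labelled library and 47900000 in the WT-labelled library. Aire transcripts stood at 640.2 FPKM in the Aire-KO-labelled library, against 221 FPKM in the WT-labelled library, so the RNA level did not check the label. Of 10 measured mTEC genes, such as H2-Aa (11948 FPKM in the Aire-KO-labelled library and 8398 FPKM in the WT-labelled library) and Epcam (296 FPKM in the Aire-KO-labelled library and 363 FPKM in the WT-labelled library), none was lower and 1, Aire, was higher. In these bulk samples, fewer cells of a type and less RNA per cell cannot be told apart.

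Most measured ligands were lower and most measured receptor chains were within 2-fold. Of 33 ligands that reached the minimum, 22 were lower, 3 were higher and 8 were within 2-fold, and the median log2 ratio was -1.73. Of 36 receptor chains, 10 were lower, 4 were higher and 22 were within 2-fold, and the median was 0.34. Among all 15906 genes at the minimum 20.5% were lower and 7.09% higher, with a median of 0.05. A mean taken over both libraries admits genes that are high in one of them. Of the 74 members that passed, 15 reached 0.5 FPKM in the WT-labelled library alone, and none in the Aire-KO-labelled library alone. These 15 were Il1a, Il1f8, Il19, Il24, Il17b, Il12b, Il31, Il2, Il3, Il9, Il1bos, Il18rap, Il20ra, Il22ra1 and Il31ra. With 0.5 FPKM required in both libraries, 12 of 23 ligands were lower and 3 higher (median -1.15), and 7 of 32 receptor chains were lower and 4 higher (median 0.47). The shares among all 14048 such genes were 12.3% lower and 7.04% higher (median 0.12). The share of lower ligands lay well above that of all genes under both rules and the share of lower receptor chains was nearer to it, and no test of either difference was possible.

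The count of lower genes depended on level in both roles. Among members with a mean under 10 FPKM, 17 of 22 ligands were lower and none higher, and 8 of 16 receptor chains were lower and 1 higher, against 29.4% lower and 7.39% higher of all genes in that range. Many of these passed the minimum only through the WT-labelled library, in which they are high. With 0.5 FPKM required in both libraries, 7 of 12 ligands under 10 FPKM were lower and none higher, and 5 of 12 receptor chains were lower and 1 higher, against 15.4% lower and 7.42% higher of all such genes. From 10 FPKM upwards there were 5 lower and 3 higher of 11 ligands, and 2 lower and 3 higher of 20 receptor chains, against 9.69% lower and 6.73% higher of all genes. The summed level of all 37 ligands, most of it from a few abundant genes, was 811.8 FPKM in the Aire-KO-labelled library and 766.6 FPKM in the WT-labelled library. Without Il13 the sum was 498.0 FPKM in the Aire-KO-labelled library and 616.4 FPKM in the WT-labelled library.

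**Figure D1:**
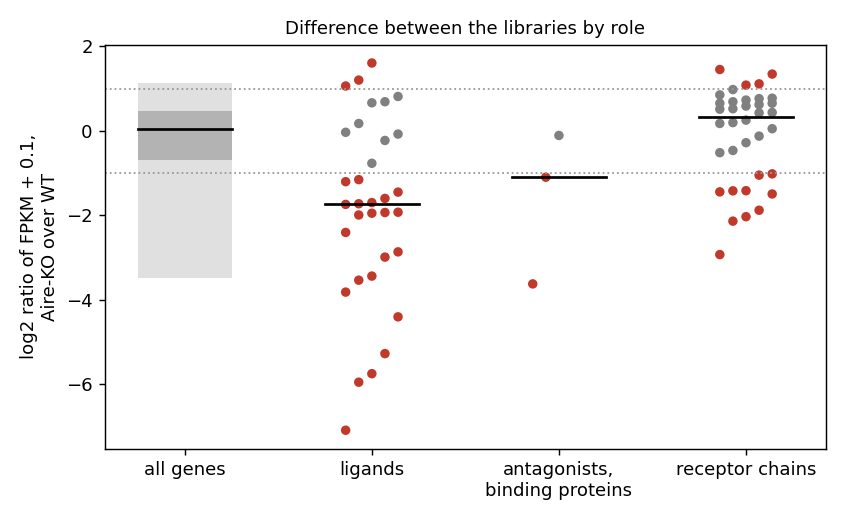
Log2 ratio of FPKM + 0.1, Aire-KO over WT (vertical axis), for all genes at the minimum (grey bars span the 5th to 95th and the 25th to 75th percentile) and for each member by role (points, red at a 2-fold difference or more, medians as black lines, dotted lines at 2-fold). The ligand median of -1.73 lies below the 2-fold line, and the receptor median of 0.34 lies above 0.

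The ligands at the top of the list were not the ones that differed most. Il13, which encodes a type 2 cytokine, was the most abundant ligand in the Aire-KO-labelled library at 314 FPKM, against 150.2 FPKM in the WT-labelled library. Il23a, the IL-23 p19 subunit gene, was the most abundant ligand in the WT-labelled library and stood at 151 FPKM in the Aire-KO-labelled library, against 159 FPKM in the WT-labelled library. Il12a, the p35 subunit gene of IL-12, stood at 116 FPKM in the Aire-KO-labelled library and 66.1 FPKM in the WT-labelled library. Il1rn, the IL-1 receptor antagonist gene, was in the same range at 177 FPKM in the Aire-KO-labelled library and 191 FPKM in the WT-labelled library. At the other end, 6 members were listed at 0 in the Aire-KO-labelled library and 1, Il1rapl1, in the WT-labelled library. The 6 ligands with the lowest ratios stood at 6.03 to 13.5 FPKM in the WT-labelled library. All of them but Il5 passed the minimum through the WT-labelled library alone, in which they are high.

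**Figure D2:**
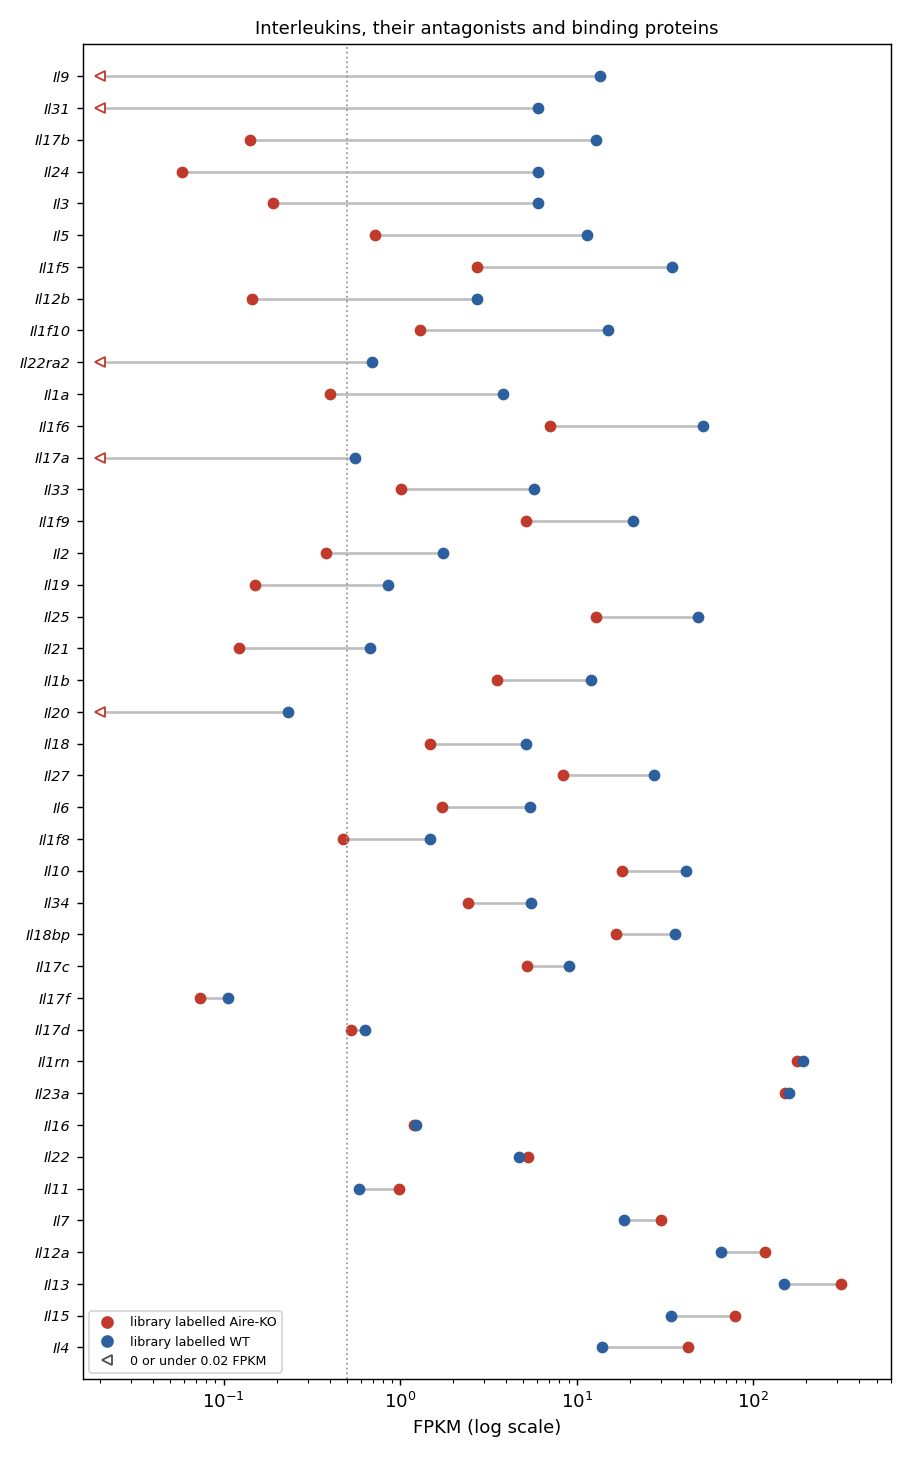
Level of each ligand, antagonist and binding protein in the Aire-KO-labelled library (red) and the WT-labelled library (blue), in FPKM on a log axis, ordered by log2 ratio with the lowest at the top. Open triangles mark 0 or under 0.02 FPKM, and the dotted line marks 0.5 FPKM. Il9 and Il31 head the list at 0 in the Aire-KO-labelled library, against 13.5 and 6.08 FPKM in the WT-labelled library, and Il4 closes it at 42.8 FPKM in the Aire-KO-labelled library, against 14.0 FPKM in the WT-labelled library.

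All 8 ligands of the IL-1 family were lower, with a median log2 ratio of -2.20. Il1a and Il1f8 passed the minimum through the WT-labelled library alone, and the 6 ligands at the minimum in both libraries were lower too. Il1f6, Il1f9 and Il1f8 encode IL-36 alpha, gamma and beta, cytokines best known from epidermis. Il1f6 stood at 7.09 FPKM in the Aire-KO-labelled library, against 52.2 FPKM in the WT-labelled library (-2.88, -3.08 to -2.70). Il1f9 stood at 5.15 FPKM in the Aire-KO-labelled library and 20.8 FPKM in the WT-labelled library, and Il1f8 at 0.476 FPKM in the Aire-KO-labelled library and 1.47 FPKM in the WT-labelled library. Il1f10, the IL-38 gene, stood at 1.304 FPKM in the Aire-KO-labelled library and 15.1 FPKM in the WT-labelled library, also past a 4-fold difference. Il1f5 encodes the antagonist of the IL-36 receptor, and its 2.72 FPKM in the Aire-KO-labelled library, against 34.6 FPKM in the WT-labelled library, was the lowest ratio in the family (-3.67, -3.85 to -3.49). Ligands and antagonist of the IL-36 receptor were thus both lower.

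The other IL-1 family ligands include the inflammatory cytokine genes Il1a (0.399 FPKM in the Aire-KO-labelled library and 3.85 FPKM in the WT-labelled library) and Il1b (3.56 FPKM in the Aire-KO-labelled library and 12.1 FPKM in the WT-labelled library). Il33, an alarmin gene of barrier epithelium, stood at 1.01 FPKM in the Aire-KO-labelled library, against 5.76 FPKM in the WT-labelled library. Il18, whose product is processed by the inflammasome, stood at 1.48 FPKM in the Aire-KO-labelled library, against 5.14 FPKM in the WT-labelled library, and Il18bp, its secreted binding protein gene, at 16.7 FPKM in the Aire-KO-labelled library, against 35.9 FPKM in the WT-labelled library. Both sides of the IL-18 pair were lower, while Il1rn was within 2-fold, its log2 ratio being -0.11. Genes that mark cornified epidermis were lower as well, all 8 of 8 measured, against 20.5% of all genes at the minimum. Their summed level was 252.4 FPKM in the Aire-KO-labelled library and 1971 FPKM in the WT-labelled library. Lce1a1 of that list was listed at 0 in the Aire-KO-labelled library. Their part in the IL-36 result was not tested.

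Of 7 measured receptors of the same family 4 were within 2-fold, 2 were lower and 1 was higher. Among all genes at the minimum 20.5% were lower and 7.09% higher. Il18rap passed the minimum through the WT-labelled library alone, and of the 6 receptors at the minimum in both libraries 1 was lower and 1 higher. Il1r1, the signalling IL-1 receptor, stood at 24.5 FPKM in the Aire-KO-labelled library and 20.5 FPKM in the WT-labelled library, and Il1rl2, the IL-36 receptor, at 24.2 FPKM in the Aire-KO-labelled library and 21.1 FPKM in the WT-labelled library. Il1rl1, the IL-33 receptor also named ST2, was at 2.94 FPKM in the Aire-KO-labelled library and 2.83 FPKM in the WT-labelled library. All these were within 2-fold. Il1r2, a decoy that binds IL-1 without signalling, was higher at 81.9 FPKM in the Aire-KO-labelled library, against 32.2 FPKM in the WT-labelled library (1.35, 1.27 to 1.42). Il18r1, the binding chain for IL-18, stood at 67.7 FPKM in the Aire-KO-labelled library and 43.99 FPKM in the WT-labelled library, whereas its partner Il18rap was lower at 0.297 FPKM in the Aire-KO-labelled library, against 1.02 FPKM in the WT-labelled library. Il1rap, the accessory chain shared by IL-1, IL-33 and IL-36 receptors, was also lower at 1.94 FPKM in the Aire-KO-labelled library, against 5.37 FPKM in the WT-labelled library. Il1rapl1 and Il1rapl2, related genes known from neurons, were under the minimum at 0.0079 FPKM in the Aire-KO-labelled library and 0.109 FPKM in the WT-labelled library for Il1rapl2, and at 0.00718 FPKM in the Aire-KO-labelled library and 0 in the WT-labelled library for Il1rapl1.

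Type 2 cytokine genes were split. Il4, which drives type 2 T cell responses and antibody class switching, stood at 42.8 FPKM in the Aire-KO-labelled library, against 14.0 FPKM in the WT-labelled library (1.61, 1.42 to 1.82). Il13 was also higher, at 314 FPKM in the Aire-KO-labelled library, against 150.2 FPKM in the WT-labelled library (1.06, 1.02 to 1.10), just past the 2-fold rule. Its log2 ratio was 0.998 with the median of all genes set to 0 and 0.987 with equal FPKM totals, both just under the rule. Il5, the eosinophil growth factor gene of the same cluster, was lower at 0.717 FPKM in the Aire-KO-labelled library, against 11.4 FPKM in the WT-labelled library (-3.99, -4.44 to -3.60). Il9, whose product acts on mast cells, was listed at 0 in the Aire-KO-labelled library and stood at 13.5 FPKM in the WT-labelled library, where about 217 fragments lay behind it. It was the 1 member called in the authors' deposited table (q of 0.0155), and the next smallest q among members in the authors' deposited table was 0.125. Il3 is a growth factor gene of mast cells and basophils. It stood at 0.1902 FPKM in the Aire-KO-labelled library, against 6.04 FPKM in the WT-labelled library (-4.99, -7.02 to -3.73). It rested on about 4 fragments in the Aire-KO-labelled library. Both Il9 and Il3 passed the minimum through the WT-labelled library alone.

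Of 5 measured genes that mark mast cells and basophils, 4 were lower (Fcer1a, Mcpt8, Ms4a2 and Tpsb2), against 20.5% of all genes at the minimum. All 4 passed the minimum through the WT-labelled library alone. Mcpt8 and Tpsb2 were listed at 0 in the Aire-KO-labelled library, as was Cpa3, which is under the minimum. Their summed level was 35.8 FPKM in the Aire-KO-labelled library and 44.1 FPKM in the WT-labelled library, most of it Kit (35.7 FPKM in the Aire-KO-labelled library and 19.1 FPKM in the WT-labelled library), which other cells also express. Of 10 measured thymocyte genes 4 were lower and none higher. All 10 reached 0.5 FPKM in both libraries with a mean under 10 FPKM, where 15.4% of all genes were lower. The thymocyte list had a summed level of 22.3 FPKM in the Aire-KO-labelled library and 38.7 FPKM in the WT-labelled library, with none at 0. Cd3e stood at 0.583 FPKM in the Aire-KO-labelled library and 0.913 FPKM in the WT-labelled library. Of 4 measured innate lymphoid genes 1 was lower and 1 higher, against 20.5% lower and 7.09% higher of all genes. Gata3 was lower (1.76 FPKM in the Aire-KO-labelled library and 4.09 FPKM in the WT-labelled library). Zbtb16 was higher (3.003 FPKM in the Aire-KO-labelled library and 0.458 FPKM in the WT-labelled library). It passed the minimum through the Aire-KO-labelled library alone. At the minimum in both libraries 1 of 3 was lower and none higher. The shares among all such genes were 12.3% lower and 7.04% higher. The innate lymphoid list had a summed level of 52.1 FPKM in the Aire-KO-labelled library and 54.4 FPKM in the WT-labelled library, and Ncr1 was listed at 0 in both. The part of such cells in the type 2 genes was not tested.

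Among ligands of the common gamma chain, those that thymic epithelium is known for were not lower. Il15 was higher at 78.6 FPKM in the Aire-KO-labelled library, against 34.1 FPKM in the WT-labelled library (1.20, 1.12 to 1.29), and Il7 stood at 30.1 FPKM in the Aire-KO-labelled library, against 18.6 FPKM in the WT-labelled library, under the 2-fold rule. Il2, the T cell growth factor gene, was lower at 0.3804 FPKM in the Aire-KO-labelled library, against 1.75 FPKM in the WT-labelled library. Il21, a follicular helper T cell cytokine gene, was under the minimum at 0.123 FPKM in the Aire-KO-labelled library and 0.676 FPKM in the WT-labelled library.

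Of 12 receptor chains for common gamma chain and type 2 cytokines, 1 was higher, 1 was lower and 10 were within 2-fold. All 12 reached 0.5 FPKM in both libraries, where 12.3% of all genes were lower and 7.04% higher. A ratio above 0 was seen in 9 of 12, against 53.3% of all genes at the minimum and 64.1% of those at 10 FPKM or more. Il2rg, the common gamma chain, was the most abundant receptor chain in both libraries, at 216 FPKM in the Aire-KO-labelled library and 137 FPKM in the WT-labelled library. Il21r was higher at 17.7 FPKM in the Aire-KO-labelled library, against 8.31 FPKM in the WT-labelled library, and Il2rb, the chain that IL-2 and IL-15 share, was lower at 1.13 FPKM in the Aire-KO-labelled library, against 4.43 FPKM in the WT-labelled library. The remaining chains were within 2-fold. Il4ra, which serves IL-4 and IL-13, stood at 93.8 FPKM in the Aire-KO-labelled library and 69.8 FPKM in the WT-labelled library. Its partner Il13ra1 stood at 56.7 FPKM in the Aire-KO-labelled library and 37.7 FPKM in the WT-labelled library, and the IL-13 decoy gene Il13ra2 at 28.4 FPKM in the Aire-KO-labelled library and 15.7 FPKM in the WT-labelled library. Il15ra, which presents IL-15 to neighbouring cells, was at 54.3 FPKM in the Aire-KO-labelled library and 40.1 FPKM in the WT-labelled library, and Il2ra, the IL-2 alpha chain, at 19.5 FPKM in the Aire-KO-labelled library and 13.6 FPKM in the WT-labelled library. The alpha chains Il3ra (16.7 FPKM in the Aire-KO-labelled library and 10.01 FPKM in the WT-labelled library) and Il5ra (6.02 FPKM in the Aire-KO-labelled library and 8.65 FPKM in the WT-labelled library) were measured in both libraries although Il3 and Il5 were lower. Il9r stood at 16.9 FPKM in the Aire-KO-labelled library and 9.92 FPKM in the WT-labelled library, while its ligand gene was listed at 0 in the Aire-KO-labelled library. Il7r, the receptor chain by which lymphocytes sense IL-7, stood at 3.04 FPKM in the Aire-KO-labelled library and 3.71 FPKM in the WT-labelled library.

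**Figure D3:**
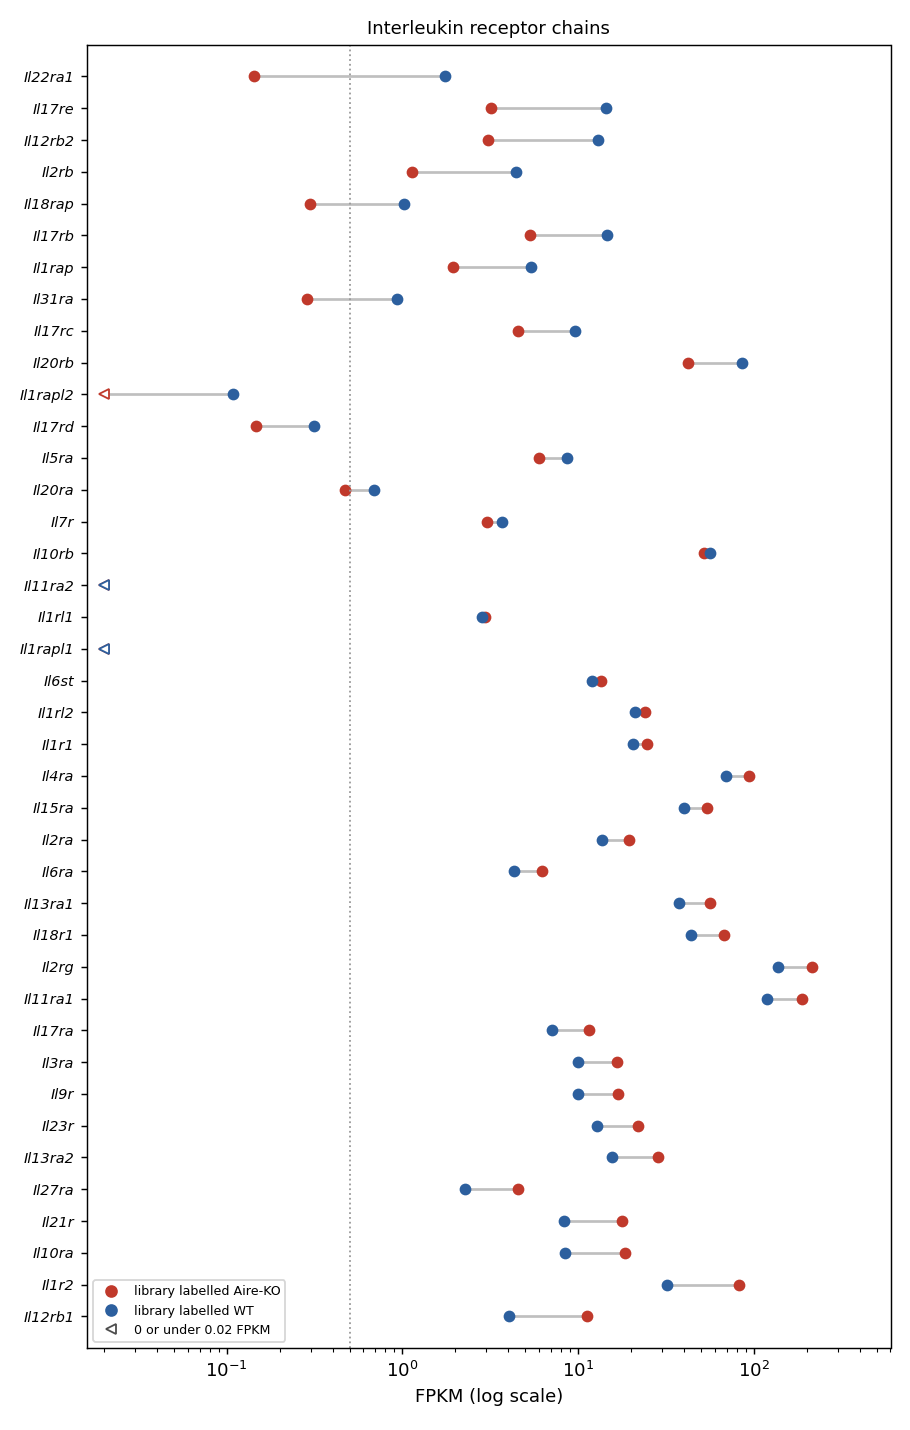
Level of each receptor chain in the Aire-KO-labelled library (red) and the WT-labelled library (blue), in FPKM on a log axis, ordered by log2 ratio with the lowest at the top. Open triangles mark 0 or under 0.02 FPKM, and the dotted line marks 0.5 FPKM. Il22ra1 heads the list at 0.144 FPKM in the Aire-KO-labelled library, against 1.75 FPKM in the WT-labelled library, and Il12rb1 closes it at 11.2 FPKM in the Aire-KO-labelled library, against 4.05 FPKM in the WT-labelled library.

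In the IL-10 family 3 of 4 measured ligands were lower, but Il24 and Il19 passed the minimum through the WT-labelled library alone. Of the 2 ligands at the minimum in both libraries, Il10 was lower and Il22 was within 2-fold. Il10, an anti-inflammatory cytokine gene, stood at 18.1 FPKM in the Aire-KO-labelled library, against 41.8 FPKM in the WT-labelled library (-1.21, -1.31 to -1.10). Il24, an epithelial cytokine gene, stood at 0.0585 FPKM in the Aire-KO-labelled library, against 6.03 FPKM in the WT-labelled library. Its log2 ratio without pseudocount was -6.69 (-9.00 to -5.15), with about 3 fragments in the Aire-KO-labelled library and 277 in the WT-labelled library. Il19, of the same subfamily, stood at 0.151 FPKM in the Aire-KO-labelled library and 0.859 FPKM in the WT-labelled library, and Il20 was under the minimum, listed at 0 in the Aire-KO-labelled library and at 0.232 FPKM in the WT-labelled library. Il22 acts on epithelium and has a close copy, Iltifb, between which reads may be split, and it was within 2-fold (5.31 FPKM in the Aire-KO-labelled library and 4.69 FPKM in the WT-labelled library). Il22ra2, its secreted binding protein gene, was listed at 0 in the Aire-KO-labelled library and stood at 0.694 FPKM in the WT-labelled library, under the minimum as a mean.

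Il10ra, the private chain of the IL-10 receptor, was higher while Il10 was lower, at 18.4 FPKM in the Aire-KO-labelled library, against 8.45 FPKM in the WT-labelled library, and the shared chain Il10rb was within 2-fold (51.8 FPKM in the Aire-KO-labelled library and 56.5 FPKM in the WT-labelled library). Il20rb, the chain that IL-19, IL-20 and IL-24 have in common, was among the most abundant receptor chains and just past the rule at 42.1 FPKM in the Aire-KO-labelled library, against 85.3 FPKM in the WT-labelled library. Il22ra1, a partner for IL-22, IL-20 and IL-24, was lower at 0.144 FPKM in the Aire-KO-labelled library, against 1.75 FPKM in the WT-labelled library. Il20ra was low in both libraries (0.471 FPKM in the Aire-KO-labelled library and 0.688 FPKM in the WT-labelled library) and within 2-fold.

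Cytokines of the IL-12 group are made of subunits encoded by separate genes, and some of these were lower and others were not. Il12b encodes the p40 subunit that IL-12 and IL-23 share, and it stood at 0.145 FPKM in the Aire-KO-labelled library, against 2.74 FPKM in the WT-labelled library, a log2 ratio of -3.53. Il12b passed the minimum through the WT-labelled library alone. Il12a and Il23a, which encode its partners, were far more abundant and within 2-fold. Il27, the p28 subunit gene of IL-27, was lower at 8.35 FPKM in the Aire-KO-labelled library, against 27.3 FPKM in the WT-labelled library (-1.71, -1.88 to -1.54). Ebi3, the partner subunit gene of IL-27, was also lower at 32.9 FPKM in the Aire-KO-labelled library, against 90.1 FPKM in the WT-labelled library. Among receptors, Il12rb1, shared by IL-12 and IL-23, was higher at 11.2 FPKM in the Aire-KO-labelled library, against 4.05 FPKM in the WT-labelled library. Il12rb2, the chain for IL-12, was lower at 3.08 FPKM in the Aire-KO-labelled library, against 12.9 FPKM in the WT-labelled library, whereas Il23r, the chain for IL-23, stood at 21.96 FPKM in the Aire-KO-labelled library, against 12.8 FPKM in the WT-labelled library. Il27ra stood at 4.55 FPKM in the Aire-KO-labelled library, against 2.26 FPKM in the WT-labelled library, a log2 ratio of 0.98 that passed the rule with a pseudocount of 0.01.

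Of the IL-6 group, Il6 was lower at 1.73 FPKM in the Aire-KO-labelled library, against 5.45 FPKM in the WT-labelled library, and Il11 was within 2-fold (0.991 FPKM in the Aire-KO-labelled library and 0.588 FPKM in the WT-labelled library). Il31 is an itch cytokine gene known from type 2 T cells. It was listed at 0 in the Aire-KO-labelled library and stood at 6.08 FPKM in the WT-labelled library. Its receptor chain Il31ra was lower at 0.285 FPKM in the Aire-KO-labelled library, against 0.927 FPKM in the WT-labelled library. Both Il31 and Il31ra passed the minimum through the WT-labelled library alone. The shared signal transducer Il6st (13.6 FPKM in the Aire-KO-labelled library and 12.02 FPKM in the WT-labelled library) and Il6ra (6.25 FPKM in the Aire-KO-labelled library and 4.32 FPKM in the WT-labelled library) were within 2-fold. Il11ra1 was abundant at 188 FPKM in the Aire-KO-labelled library and 119 FPKM in the WT-labelled library. Il11ra2, a near-identical copy, was listed at 0 in the Aire-KO-labelled library and at close to 0 in the WT-labelled library, and the split of reads between the copies is uncertain.

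The gene of IL-25 and that of a receptor chain that binds it were both lower. Il25, the tuft cell cytokine gene, stood at 12.8 FPKM in the Aire-KO-labelled library, against 48.9 FPKM in the WT-labelled library (-1.93, -2.07 to -1.80), and Il17rb, which encodes a receptor chain for IL-25 and IL-17B, at 5.34 FPKM in the Aire-KO-labelled library, against 14.7 FPKM in the WT-labelled library (-1.46, -1.61 to -1.32). All 7 measured tuft cell genes were lower, against 20.5% of all genes at the minimum. The tuft cell genes had a summed level of 98.3 FPKM in the Aire-KO-labelled library and 364.7 FPKM in the WT-labelled library, with none at 0. Their part in the Il25 result was not tested. Il17b, the IL-17B gene, stood at 0.141 FPKM in the Aire-KO-labelled library, against 12.9 FPKM in the WT-labelled library, on about 4 fragments in the Aire-KO-labelled library (-6.51, -8.30 to -5.05).

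Il17c, an epithelial cytokine gene, was within 2-fold at 5.26 FPKM in the Aire-KO-labelled library, against 9.02 FPKM in the WT-labelled library, while Il17re, its receptor chain, was lower at 3.202 FPKM in the Aire-KO-labelled library, against 14.4 FPKM in the WT-labelled library. Il17rc, which pairs with Il17ra for IL-17A and IL-17F, was just past the rule at 4.56 FPKM in the Aire-KO-labelled library, against 9.54 FPKM in the WT-labelled library. Il17ra, the chain shared by the family, was within 2-fold (11.5 FPKM in the Aire-KO-labelled library and 7.09 FPKM in the WT-labelled library). The ligands known from T helper 17 cells were under the minimum, with Il17a listed at 0 in the Aire-KO-labelled library and at 0.558 FPKM in the WT-labelled library, and Il17f at 0.0732 FPKM in the Aire-KO-labelled library and 0.107 FPKM in the WT-labelled library. Il17d (0.526 FPKM in the Aire-KO-labelled library and 0.633 FPKM in the WT-labelled library) was within 2-fold, and the orphan receptor gene Il17rd (0.147 FPKM in the Aire-KO-labelled library and 0.315 FPKM in the WT-labelled library) was under the minimum.

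Among members outside these families, Il34, a ligand of the macrophage growth factor receptor, was lower at 2.42 FPKM in the Aire-KO-labelled library, against 5.51 FPKM in the WT-labelled library. Il16, which encodes a chemoattractant that binds CD4, was within 2-fold (1.19 FPKM in the Aire-KO-labelled library and 1.22 FPKM in the WT-labelled library). Il4i1 encodes an amino acid oxidase and is no cytokine, and it was the most abundant of all members, at 349 FPKM in the Aire-KO-labelled library and 279 FPKM in the WT-labelled library. It shares its locus with Nup62 and with a read-through transcript listed as Nup62-il4i1 (0.25 FPKM in the Aire-KO-labelled library and 0.211 FPKM in the WT-labelled library), so its value depends on how reads were split. Il1bos, an RNA antisense to Il1b, stood at 0.105 FPKM in the Aire-KO-labelled library and 1.12 FPKM in the WT-labelled library. The kit keeps strand, but the sources used here do not say whether counting used strand, so Il1b and Il1bos are uncertain.

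Positions were compared next, since many of these genes arose by duplication and lie side by side. By RefSeq coordinates on mm10, 38 members lay in 13 blocks in which neighbours are within 200 kb. In 4 blocks at least 2 members were lower and none was higher, and no share over all genes was taken for blocks. The largest of the 4, on chromosome 2, runs from Il1f8 through Il1f9, Il1f6, Il1f5 and Il1f10 to Il1rn. Its first 5 genes were lower, Il1f8 having passed the minimum through the WT-labelled library alone. Il1rn, at the end next to Il1f10, was within 2-fold. On chromosome 1, Il24, Il19 and Il10 were lower and Il20, between Il24 and Il19, was under the minimum. Of these only Il10 reached 0.5 FPKM in both libraries. In the block of Il1a, Il1b and Il1bos, also among the 4, only Il1b did. Also on chromosome 1, the row of 6 receptor genes from Il1r2 to Il18rap had Il1r2 higher, Il18rap lower and the 4 genes between them within 2-fold. On chromosome 6, Il12rb2 was lower and its neighbour Il23r within 2-fold.

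The type 2 cluster on chromosome 11 held both directions within a short distance. Il4 and Il13 lie 12658 bp apart, and Il5 lies 86092 bp beyond Il13, with Rad50, a DNA repair gene, in between. Rad50 stood at 55.8 FPKM in the Aire-KO-labelled library, against 14.6 FPKM in the WT-labelled library, a log2 ratio of 1.93, so Il4, Il13 and Rad50 were higher and Il5, the next in line, was lower. Kif3a, on the far side of Il4, was within 2-fold (9.17 FPKM in the Aire-KO-labelled library and 5.73 FPKM in the WT-labelled library), as was Irf1, beyond Il5 (183 FPKM in the Aire-KO-labelled library and 216 FPKM in the WT-labelled library).

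The promoters of the 3 interleukin genes in this cluster are shown because these neighbours differed in direction. The windows span 250 bases before to 50 bases after the RefSeq start (GRCm38.p6, the build of mm10), at chr11:53618616-53618915 (minus strand) for Il4, chr11:53634653-53634952 (minus strand) for Il13 and chr11:53720544-53720843 (plus strand) for Il5. Matches on either strand are in capitals for the TATA box motif (TATAAA), the GATA factor motif (AGATAA), the STAT factor motif (TTCNNNNGAA), the AP-1 motif (TGANTCA) and an NF-kappaB motif (GGGNNNTTCC).
Il4: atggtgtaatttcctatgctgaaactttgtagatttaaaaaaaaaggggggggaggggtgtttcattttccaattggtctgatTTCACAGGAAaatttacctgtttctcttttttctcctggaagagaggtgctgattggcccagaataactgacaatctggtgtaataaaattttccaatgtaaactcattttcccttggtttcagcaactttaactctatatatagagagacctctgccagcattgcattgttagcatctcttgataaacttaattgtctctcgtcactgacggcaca
Il13: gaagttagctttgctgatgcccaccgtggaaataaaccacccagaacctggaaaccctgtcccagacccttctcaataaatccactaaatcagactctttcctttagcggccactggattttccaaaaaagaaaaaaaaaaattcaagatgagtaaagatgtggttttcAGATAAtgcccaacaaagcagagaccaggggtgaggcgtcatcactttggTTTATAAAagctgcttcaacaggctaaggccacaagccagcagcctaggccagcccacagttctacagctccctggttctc
Il5: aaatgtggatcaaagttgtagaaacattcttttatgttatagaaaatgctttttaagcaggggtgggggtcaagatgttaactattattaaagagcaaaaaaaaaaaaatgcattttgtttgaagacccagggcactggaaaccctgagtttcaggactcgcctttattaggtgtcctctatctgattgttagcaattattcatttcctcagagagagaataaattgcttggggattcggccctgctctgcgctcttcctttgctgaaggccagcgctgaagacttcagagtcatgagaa
The Il13 window holds overlapping TATA box motifs on both strands just before the start, and 1 GATA factor motif. The TATA box motif occurs in 13.6% and the GATA factor motif in 11.2% of 32851 promoter windows. The Il4 window holds 1 match, the STAT factor motif, which occurs in 6.95% of windows. None of the motifs, as spelled above, is found in the Il5 window. Variant spellings of the GATA factor motif were not searched. Among them are AGATAG, which the Il5 window holds on its other strand, and TGATAA, which the Il4 window holds. A match is a run of letters and was not measured as a bound site. The windows hold 2 CpG in Il4, 3 in Il13 and 4 in Il5.

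**Figure D4:**
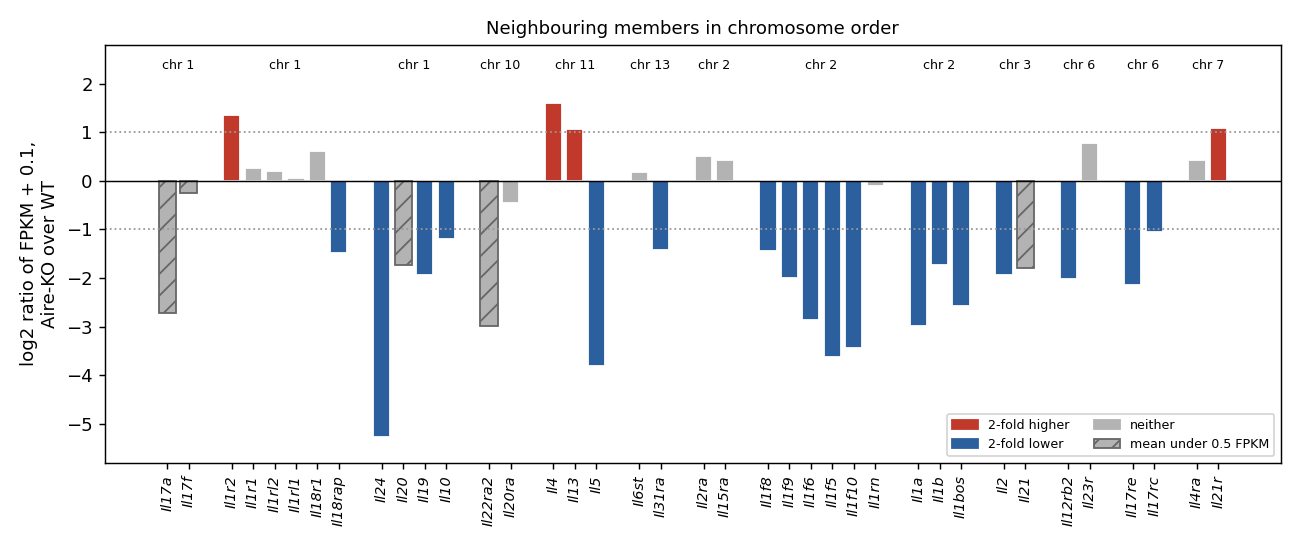
Log2 ratio of FPKM + 0.1, Aire-KO over WT (vertical axis), of members that lie within 200 kb of each other, in chromosome order within each block (bars, red for 2-fold higher, blue for 2-fold lower, grey for within 2-fold, hatched for a mean under 0.5 FPKM). In the chromosome 11 block Il4 and Il13 stand at 1.61 and 1.06 and Il5 at -3.82.

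Isoforms were examined in the 18 members that have 2 or more. Of these, 9 reached 5 FPKM in each library, and in 1 of them an isoform's share differed by 25 points or more, as it did in 5.68% of all 2499 genes at that level. That member was Il1rn, whose total was nearly equal in the libraries. NM_031167, which encodes 159 codons, stood at 21.7 FPKM in the Aire-KO-labelled library and 93.3 FPKM in the WT-labelled library, or 12.3% of the gene in the Aire-KO-labelled library and 48.8% in the WT-labelled library. NM_001039701, which encodes 178 codons, stood at 132 FPKM in the Aire-KO-labelled library and 79.7 FPKM in the WT-labelled library, or 74.7% in the Aire-KO-labelled library and 41.7% in the WT-labelled library. NM_001159562, of 162 codons, made up 13.1% in the Aire-KO-labelled library and 9.54% in the WT-labelled library. The gene is known to give a secreted form with a signal peptide and shorter intracellular forms from separate first exons. The forms of 178 and 162 codons had larger shares in the Aire-KO-labelled library, and the form of 159 codons a smaller one.

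With a minimum of 1 FPKM in both libraries another 3 members, Il33, Il1rl1 and Il1f5, showed shifts of that size. Without a minimum Il11 and Il21 did as well, at under 1 FPKM. The share of all genes with such a shift was taken at 5 FPKM only, so these counts have no share beside them. In Il33, NM_001164724 made up 0.105% of the gene in the Aire-KO-labelled library and 93.05% in the WT-labelled library, and NM_133775 the rest. Both encode 266 codons and differ in their start, so the protein is of the same length. In Il1rl1, NM_001025602, of 567 codons, made up 73.7% in the Aire-KO-labelled library and 48.2% in the WT-labelled library, and NM_010743, of 337 codons, 26.3% in the Aire-KO-labelled library and 51.8% in the WT-labelled library. The longer product is the membrane receptor and the shorter one the soluble ST2 that captures IL-33. In Il1f5, NM_001146088 made up 0.00105% in the Aire-KO-labelled library and 40.6% in the WT-labelled library, and all 3 isoforms encode 156 codons. In Il18r1, the share of the 537-codon isoform NM_008365 was 59.9% in the Aire-KO-labelled library and 41.6% in the WT-labelled library, a smaller shift. The error of splitting reads between isoforms was not measured.

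**Figure D5:**
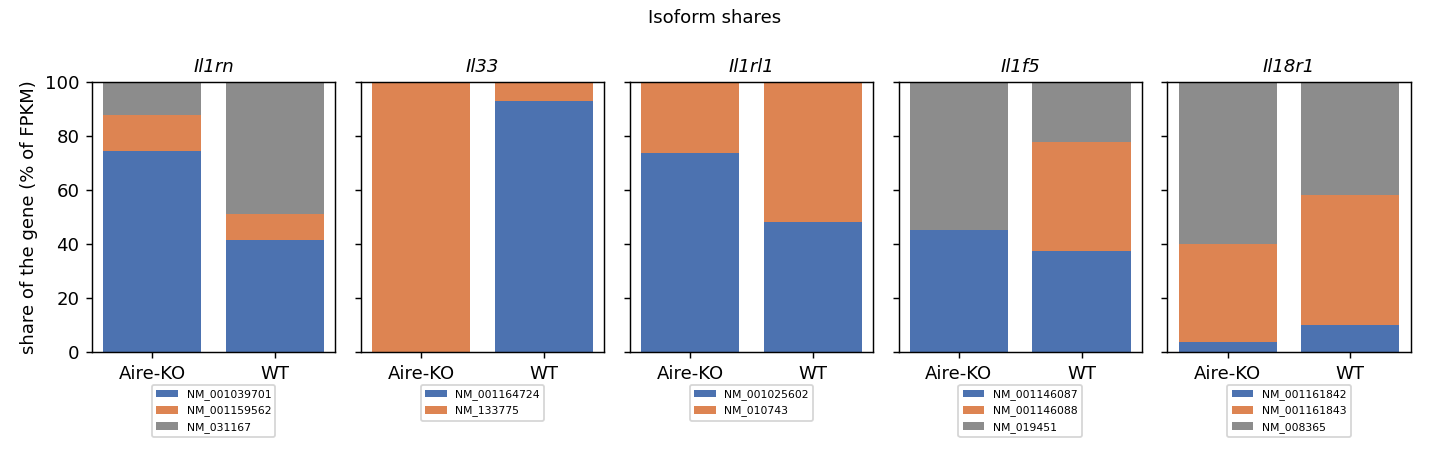
Share of each RefSeq isoform in the FPKM of its gene (vertical axis, percent) in the Aire-KO-labelled library (left bar) and the WT-labelled library (right bar), for 5 members. In Il1rn the share of NM_001039701 was 74.7% in the Aire-KO-labelled library and 41.7% in the WT-labelled library.

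The starts of Il1rn and Il33 that differ between isoforms are shown for their promoter windows. In Il1rn the window at chr2:24336610-24336909 belongs to NM_031167 and that at chr2:24345041-24345340 to a start near those of the other isoforms. In Il33 the window at chr19:29924863-29925162 belongs to NM_133775 and that at chr19:29945540-29945839 to NM_001164724. All are on the plus strand, with the same motifs in capitals.
Il1rn upstream start: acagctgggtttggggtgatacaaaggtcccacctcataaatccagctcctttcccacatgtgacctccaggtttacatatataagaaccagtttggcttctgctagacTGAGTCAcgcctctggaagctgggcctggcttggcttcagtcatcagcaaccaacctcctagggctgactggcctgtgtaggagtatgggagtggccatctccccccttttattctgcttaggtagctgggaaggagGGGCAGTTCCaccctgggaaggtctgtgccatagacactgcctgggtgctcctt
Il1rn downstream start: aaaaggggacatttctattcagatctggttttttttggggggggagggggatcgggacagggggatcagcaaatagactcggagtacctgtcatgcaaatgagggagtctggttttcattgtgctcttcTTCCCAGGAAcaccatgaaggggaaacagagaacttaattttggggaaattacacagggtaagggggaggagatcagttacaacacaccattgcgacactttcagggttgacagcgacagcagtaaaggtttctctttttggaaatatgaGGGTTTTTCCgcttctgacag
Il33 upstream start: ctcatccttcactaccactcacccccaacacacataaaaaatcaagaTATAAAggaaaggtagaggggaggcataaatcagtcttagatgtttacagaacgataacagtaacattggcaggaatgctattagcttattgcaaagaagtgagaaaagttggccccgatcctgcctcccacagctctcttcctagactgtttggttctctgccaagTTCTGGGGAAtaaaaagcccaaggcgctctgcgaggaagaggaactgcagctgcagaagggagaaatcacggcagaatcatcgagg
Il33 downstream start: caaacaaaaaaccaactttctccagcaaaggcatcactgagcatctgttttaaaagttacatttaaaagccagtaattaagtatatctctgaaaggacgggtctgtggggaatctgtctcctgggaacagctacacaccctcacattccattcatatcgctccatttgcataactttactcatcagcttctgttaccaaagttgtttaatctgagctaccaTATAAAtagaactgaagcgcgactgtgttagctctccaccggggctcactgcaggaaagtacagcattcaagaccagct
The upstream Il1rn window holds the AP-1 motif (7.81% of windows) and the NF-kappaB motif (5.55%), and the downstream one the STAT factor motif and the NF-kappaB motif. Both Il33 windows hold the TATA box motif, and the upstream one also the STAT factor motif.

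Signalling genes were counted from lists. Of 24 JAK, STAT and SOCS genes 2 were lower (8.33%) and 1 was higher (4.17%), against 20.5% lower and 7.09% higher of all genes. All 24 reached 0.5 FPKM in both libraries, and among all such genes 12.3% were lower and 7.04% higher, which is nearer. The median log2 ratio was 0.30, and 19 of 24 ratios were above 0, against 53.3% of all genes and 64.1% of those at 10 FPKM or more. Stat5a, which relays signals of the common gamma chain receptors, was higher at 131 FPKM in the Aire-KO-labelled library, against 54.7 FPKM in the WT-labelled library. Stat4, which relays IL-12, was lower at 3.58 FPKM in the Aire-KO-labelled library, against 15.7 FPKM in the WT-labelled library, and so was the feedback inhibitor gene Socs5 at 1.196 FPKM in the Aire-KO-labelled library, against 2.53 FPKM in the WT-labelled library. Stat6, which relays IL-4 and IL-13, was within 2-fold (41.7 FPKM in the Aire-KO-labelled library and 41.1 FPKM in the WT-labelled library). Of 18 genes of IL-1 family signalling, all at 0.5 FPKM or more in both libraries, none was lower or higher (median 0.09). The shares among all such genes were 12.3% and 7.04%.

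Of 10 genes of IL-17 signalling 5 were lower (50%) and none higher (median -0.57). All 10 reached 0.5 FPKM in both libraries, where 12.3% of all genes were lower and 7.04% higher. The lower genes were Nfkbiz (22.4 FPKM in the Aire-KO-labelled library and 58.9 FPKM in the WT-labelled library), a cofactor of NF-kappaB, its inhibitor gene Tnfaip3 (23.5 FPKM in the Aire-KO-labelled library and 55.2 FPKM in the WT-labelled library), the RNase gene Zc3h12a (15.1 FPKM in the Aire-KO-labelled library and 35.3 FPKM in the WT-labelled library), the transcription factor gene Cebpb (11.6 FPKM in the Aire-KO-labelled library and 24.9 FPKM in the WT-labelled library) and the adaptor gene Traf5 (2.59 FPKM in the Aire-KO-labelled library and 5.33 FPKM in the WT-labelled library). Of 31 related cytokines and receptors with other names 23 were measured, of which 7 were lower and none higher (median -0.18). The share of 30.4% lower stood against 20.5% of all genes and 29.4% of those under 10 FPKM, though some, such as Ebi3, lay above that level. At the minimum in both libraries 6 of 22 were lower (27.3%) and none higher, against 12.3% lower of all such genes. Osm, the oncostatin M gene, stood at 0.266 FPKM in the Aire-KO-labelled library, against 3.12 FPKM in the WT-labelled library. It passed the minimum through the WT-labelled library alone. Tslp, an epithelial alarmin gene that favours type 2 responses, stood at 1.704 FPKM in the Aire-KO-labelled library, against 6.31 FPKM in the WT-labelled library, and Csf2, the gene of the growth factor GM-CSF, at 8.98 FPKM in the Aire-KO-labelled library, against 22.9 FPKM in the WT-labelled library. Ebi3, Clcf1, Cntf and Ghr, the growth hormone receptor gene, were the other lower genes. Clcf1 stood at 0.911 FPKM in the Aire-KO-labelled library and 1.94 FPKM in the WT-labelled library, and Cntf at 0.534 FPKM in the Aire-KO-labelled library and 1.305 FPKM in the WT-labelled library. Ghr stood at 3.87 FPKM in the Aire-KO-labelled library and 9.898 FPKM in the WT-labelled library. Ifng, the interferon gamma gene, was within 2-fold (3.896 FPKM in the Aire-KO-labelled library and 4.43 FPKM in the WT-labelled library).

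Markers of other cells that such a sort could hold were also measured. Dendritic cell and macrophage markers included 5 lower and no higher genes among 9 measured, against 20.5% lower of all genes. At the minimum in both libraries 3 of 7 were lower, against 12.3% of all such genes. The markers had a summed level of 576.7 FPKM in the Aire-KO-labelled library and 794.1 FPKM in the WT-labelled library, with none at 0. Most of that sum was Lyz2 (436 FPKM in the Aire-KO-labelled library and 676 FPKM in the WT-labelled library). Itgam, a myeloid integrin gene, had the lowest ratio of these markers. It stood at 0.614 FPKM in the Aire-KO-labelled library and 9.402 FPKM in the WT-labelled library. A log2 ratio above 0 was seen in 3 of the 9, all within 2-fold. These were Cd68 (0.456), Fcer1g (0.533) and Zbtb46 (0.712). Of 5 B cell genes 1, Cd79a, was lower and 1, Pax5, higher, against 20.5% lower and 7.09% higher of all genes. Cd79a passed the minimum through the WT-labelled library alone. At the minimum in both libraries none of 4 was lower and 1 was higher. The shares among all such genes were 12.3% lower and 7.04% higher. The B cell genes had a summed level of 41.7 FPKM in the Aire-KO-labelled library and 42.4 FPKM in the WT-labelled library. Inflammatory interleukins such as Il1b, Il6, Il10 and Il27 are also made by myeloid cells, whose part in those results was not tested.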

How the data were processed

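Polyadenylated RNA was measured in 1 library from Aire-/- and 1 from WT mTECs of pooled mice, with a stranded kit, per the labels' protocols. The authors deposited FPKM per gene and per isoform, made with TopHat2 and Cuffdiff on mm10, per the submitters' processing notes. The sources used here give no versions, no annotation and no scaling of one library to the other. The deposited p-value and q-value compare 2 libraries, and only q-values are quoted. The 5 genes without an estimate because of high coverage were treated as missing; none is a member. All 83 members had status OK.

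Members, roles and gene lists were chosen with earlier results of these data known, and the families, the 200 kb blocks, the promoters, motifs and isoforms shown, Rad50 and the count at 0.5 FPKM in both libraries after the values were seen. Every member with a mean of 0.5 FPKM or more is named, along with genes of the signalling lists that passed the 2-fold rule. Ratios used a pseudocount of 0.1 FPKM, which understates the change of low genes. Fragments were estimated from FPKM steps in genes of 1 isoform and at least 2000 bp, using GENCODE M21 lengths through RefSeq links. Of the low values used, up to 5 fragments, 78.5% in the library labelled Aire-KO and 76.6% in the library labelled WT lay within 0.1 of a whole number, which the fit itself favours. The estimator was tested on simulated data. Totals were searched between 25000000 and 70000000, since a multiple of the true total gives whole numbers as well, so the depth is an estimate and the effective length is poorly determined. A count of 0 allows up to 0.0305 FPKM in the library labelled Aire-KO and 0.0348 FPKM in the library labelled WT for 2000 bp (3 counts). The 95% intervals of the log2 ratio are exact conditional binomial ones, given for 81 members, and they and the floors cover counting error only. Codons and isoform starts came from GENCODE, coordinates and promoters from RefSeq GRCm38.p6, in which all 83 members were matched. Python 3.11.15, pandas 2.3.3 and scipy 1.17.1 were used. No test was run. Alternatives changed the pseudocount, the minimum, the fold, the scaling, the table and the status filter.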

Additional observations from a re-analysis of the deposited data

How the results depend on the processing

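No paired analysis was possible because there is 1 library per genotype. The rule of size set most of the counts. At a 4-fold rule 11 ligands were lower and 0 higher, 3 receptor chains were lower and 0 higher, 1 antagonist or binding protein was lower, and in the signalling lists 2 genes were lower and 0 higher. At a 1.5-fold rule 6 ligands, 14 receptor chains and 11 signalling genes were higher. With 15 points in place of 25, 3 members had an isoform share shift, and with 1 FPKM in place of 5 required in both libraries, 4 did. The share of all genes was not taken at either setting. The other pseudocounts, minimum levels as a mean, scalings, the summed isoforms and the status filter left these counts within 1.5 times of the reported ones. No member that was lower or higher changed sign under any alternative run. A pseudocount of 1 took 8 members under the 2-fold rule and a minimum of 2 FPKM left out 8 of those that were lower or higher. Either scaling alternative took 1 member, Il13, under the rule and changed no other call of a member. Of the alternatives added after seeing the data, 0.5 FPKM in both libraries left 12 ligands lower, and the other left out members that overlap another gene or have a near-identical copy, which removed Il1b and Il1bos from the lower ones. Depth limits the members that rest on few fragments in the library labelled Aire-KO, among them Il24, Il17b and Il3, whose order by ratio is not resolved.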
